A study of Mus musculus with 19 samples.

Results

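The KI-96 mouse carries a truncated mutant huntingtin gene, and its striatum was compared with that of wild type (WT) mice. The comparison takes 4 KI-96 and 7 WT mice, 11 of the 19 mice of the study, all 6 months old and on a C57/BL/6 background. KI-96 was made from the HD140Q knock-in (KI) mouse, whose own Htt gene carries a long CAG repeat. CRISPR-Cas9 cutting at exon 2 left an allele that yields the first 96 amino acids of huntingtin (HTT) with the expanded polyglutamine tract. Founders were crossed to WT mice, and the KI mice of the study are described as heterozygous, so that a normal copy of Htt remained. The KI-571 and KI-FL mice, which yield a longer fragment and the full-length mutant protein from the same repeat, served only for direct comparisons. Chromosomes X and Y were left out, which leaves 49858 autosomal genes of 54232 in the table. Of these, 17232 had enough reads to be tested, which is 34.6%. The labels give no sex and no date of dissection. The methods describe several KI-96 founders, and which of them each sequenced mouse descended from is not given in the sources used here.

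Huntingtin is a large scaffold protein needed in embryonic development and in neurons. Expansion of the CAG repeat in exon 1 lengthens a polyglutamine tract near the start of the protein and causes Huntington disease, in which the GABA-releasing projection neurons of the striatum are the most affected cells. N-terminal fragments with the long tract enter the nucleus and aggregate there, and loss of transcripts that mark projection neurons is a known feature of the disease and of mouse models.

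The reference coding bases of Htt exons 1 and 2 show where the KI-96 fragment comes from. In transcript Htt-201 on GRCm38 the coding part of exon 1 is chr5:34761907-34762109 and exon 2 is chr5:34782742-34782825, on the plus strand. Joined, they hold 287 bases, or 95 whole codons and 2 bases. The capitals mark the run of 7 glutamine codons, codons 18 to 24, at the place of the repeat that is expanded in the KI allele. The KI allele itself is not shown.
Htt exons 1 and 2: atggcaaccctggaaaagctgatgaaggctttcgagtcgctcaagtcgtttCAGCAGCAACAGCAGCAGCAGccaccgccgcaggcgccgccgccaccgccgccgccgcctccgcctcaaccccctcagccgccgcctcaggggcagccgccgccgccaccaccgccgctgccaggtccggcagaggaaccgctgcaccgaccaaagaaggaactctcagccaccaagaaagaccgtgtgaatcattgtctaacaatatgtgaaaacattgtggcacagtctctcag

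Htt RNA was not lower in KI-96 striatum. Read counts scaled to a common library size (CPM) were 183, 190, 252 and 148 in KI-96 replicates 1 to 4 and 174 to 203 in the WT mice, with a median of 180. The KI-96 mice lay on both sides of the WT range. The log2 fold change was 0.06 (SE 0.118), with an edgeR adjusted p of 0.885. It was between -0.09 and 0.17 with each mouse left out in turn, and it was negative only without KI-96 replicate 3. Reads were counted over the whole gene, so that this level does not separate the truncated allele from the normal copy and does not check the label.

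Reads on genes numbered 17281603 to 26388542 in the WT and 14678565 to 23373551 in the KI-96 libraries. KI-96 replicate 3 stood apart, since 24.2% of its reads fell outside annotated genes, where the range of the remaining KI-96 libraries was 11.8% to 12.7%. The WT mice also differed among themselves. In 1874 of the 17232 tested genes WT replicates 5 to 7 did not overlap with WT replicates 1 to 4. Some genes separate groups this small by chance, and that share was not worked out. In 150 of the 1874 the means lay over 1 log2 unit apart, with the KI-96 mean nearer to WT replicates 1 to 4 in 115. WT replicate 3 had a summed level of cortical neuron markers of 961 CPM against 14.0 to 78.4 in the other WT mice. Xist, the RNA that coats the inactive X chromosome of females, was at 906 to 1578 CPM in the KI-96 mice and at 1069 CPM in WT replicate 1, but at 0.268 to 2.999 CPM in the other 6 WT mice. Genotype and Xist level therefore cannot be told apart except through WT replicate 1. Markers of striatal projection neurons, which include Drd1, Drd2, Penk, Tac1 and Ppp1r1b, summed to 6466 to 10116 CPM in the KI-96 and 6897 to 10592 CPM in the WT mice, so that the markers of the labelled tissue were present in every library. In bulk tissue, fewer cells of a type and less RNA per cell cannot be told apart.

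No autosomal gene passed an edgeR adjusted p of 0.05, or 0% of those tested, and none passed 0.1. The smallest adjusted p was 0.382. At an unadjusted p under 0.05 there were 1735 genes, or 10.1%, of which 897 (5.21%) were higher and 838 (4.86%) were lower in KI-96. DESeq2 on the same mice called 50 genes, 25 higher and 25 lower, or 0.315% of the 15866 autosomal genes to which it gave an adjusted p. The mice themselves did not overlap in 221 genes, or 1.28%, with all 4 KI-96 mice above every WT mouse in 103 (0.598%) and below every WT mouse in 118 (0.685%). The median log2 fold change of all autosomal genes was -0.02. The spread between mice of 1 genotype was 0.208 as a biological coefficient of variation.

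Single mice moved these counts. An unadjusted p under 0.05 with the same direction was kept in all 11 leave-one-out fits by 513 of the 1735 genes, or 29.6%, with 216 higher and 297 lower in KI-96. Of these, 156 also had no overlap between the groups. Leaving out KI-96 replicate 4 raised the count to 3142, and leaving out WT replicate 6 lowered it to 1260. Without KI-96 replicate 3 the count was 1928, but only 54.2% of the 1735 genes stayed below 0.05 in the same direction, the lowest share of any mouse. The number past an edgeR adjusted p of 0.05 stayed between 0 and 2. It was Catspere1 without WT replicate 1, Alb and Tmem181b-ps without KI-96 replicate 3, and Rpl38-ps2 without KI-96 replicate 4. DESeq2 was moved more, from 5 calls without WT replicate 7 to 668 without KI-96 replicate 4, and 4 of its 50 genes, Catspere1, Tmem181b-ps, Kcng1 and Gm34721, were called in every fit. With the log2 level of Xist added to the model, here called the Xist covariate, 149 autosomal genes were left at an unadjusted p under 0.05. With WT replicates 1 to 4 as the only controls there were 602, and with WT replicates 5 to 7 only there were 2015.

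**Figure D1:**
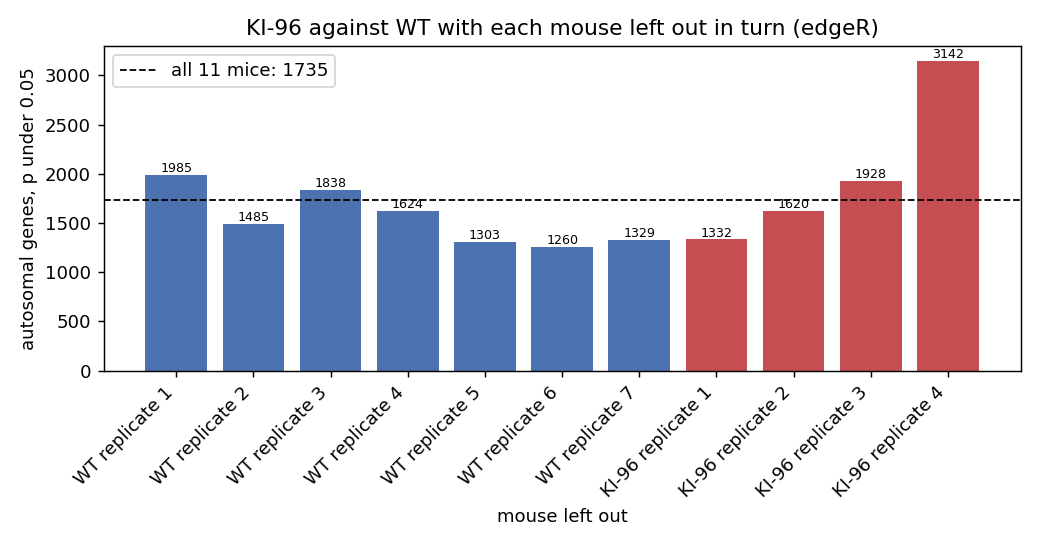
Bars show the number of autosomal genes at an unadjusted edgeR p under 0.05 when the mouse named on the horizontal axis is left out, blue for WT and red for KI-96, and the dashed line is the count with all 11 mice. The count runs from 1260 without WT replicate 6 to 3142 without KI-96 replicate 4, against 1735 with every mouse.

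Among the 20 genes with the smallest p, 10 were protein coding and 7 of these were lower in KI-96. All 20 kept an unadjusted p under 0.05 and their direction in all 11 leave-one-out fits, and 19 were among the DESeq2 calls, but each had an edgeR adjusted p of 0.382. They were chosen by p in these same mice, so that holding in these fits is no separate support. With the Xist covariate all 20 kept their direction and 5 kept a p under 0.05. The protein-coding genes are described first, by role.

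Kcng1 codes for a silent potassium channel subunit that changes the behaviour of Kv2 channels (chr2:168260117-168281736, minus strand). It was at 67.7, 55.0, 71.9 and 45.4 CPM in the KI-96 mice and at 22.6 to 42.1 CPM in the WT mice, with a median of 31.8. Every KI-96 mouse lay above every WT mouse. The log2 fold change was 0.85 (SE 0.157) and ranged from 0.76 to 0.97 with each mouse left out. The edgeR adjusted p was 0.382 and the DESeq2 adjusted p was 0.00334.

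Mfn2, which codes for mitofusin 2, a protein of mitochondrial fusion, was at 308, 277, 294 and 226 CPM in KI-96 and at 168 to 234 CPM in WT, with a median of 193. Only KI-96 replicate 4 lay inside the WT range, and WT replicate 1 was the highest WT mouse. Its log2 fold change was 0.49 (SE 0.110), with an edgeR adjusted p of 0.382 and a DESeq2 adjusted p of 0.0232. Coq10b, a coenzyme Q-binding protein of the respiratory chain, was at 13.8, 10.9, 12.1 and 13.7 CPM in KI-96 and at 15.6 to 21.2 CPM in WT, with a median of 18.4. All KI-96 mice were below all WT mice, by a log2 fold change of -0.55 (SE 0.112), with a DESeq2 adjusted p of 0.0133.

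Dlx1 is a homeobox factor that GABA neurons of the forebrain need in development. It was at 16.9, 19.8, 15.0 and 18.7 CPM in KI-96 and at 20.7 to 30.2 CPM in WT, with a median of 25.2. The groups did not overlap, and the log2 fold change of -0.53 (SE 0.116) stayed between -0.59 and -0.46 with each mouse left out. Ppp4r4, a regulatory subunit of protein phosphatase 4, was at 59.7, 56.7, 54.7 and 51.9 CPM in KI-96 and 66.8 to 84.8 CPM in WT, median 71.9. Its groups did not overlap either, at a log2 fold change of -0.41 (SE 0.0886). Bbs5, a subunit of the BBSome that moves proteins to and from cilia, was at 10.8, 11.3, 13.3 and 14.6 CPM in KI-96 and at 15.7 to 20.1 CPM in WT, with a log2 fold change of -0.51 (SE 0.117) and no overlap. Dlx1 and Ppp4r4 were at an unadjusted p under 0.05 with the Xist covariate as well, and Bbs5 was not.

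Ifrd1, an interferon-related regulator of transcription, was at 12.4, 15.8, 9.75 and 17.4 CPM in KI-96 and at 18.1 to 26.2 CPM in WT, again without overlap, with a log2 fold change of -0.70 (SE 0.155). Plk5, a polo-like kinase expressed in brain, was at 15.1, 14.0, 10.9 and 22.1 CPM against 21.6 to 37.5 CPM, and only KI-96 replicate 4 reached the WT range. Its log2 fold change was -0.90 (SE 0.192). Adi1, an enzyme of the methionine salvage pathway, was at 25.6, 27.3, 18.8 and 32.6 CPM against 30.2 to 76.4 CPM. KI-96 replicate 4 lay within the WT range and WT replicate 1 at its lower end, and the log2 fold change of -1.02 (SE 0.228) became -0.25 with the Xist covariate. Rpl3, a protein of the large ribosomal subunit, was at 701, 358, 483 and 510 CPM against 231 to 374 CPM, a log2 fold change of 0.80 (SE 0.178). Ribosomal protein genes have near-identical processed copies between which reads can be split, so that this value is uncertain.

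**Figure D2:**
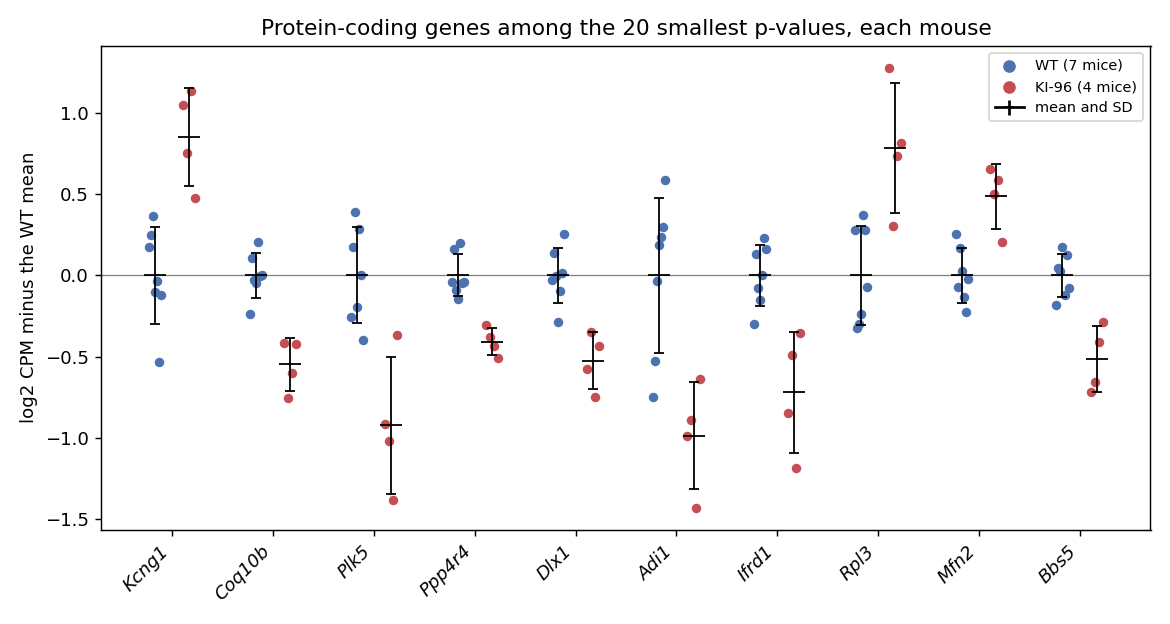
Points are the log2 CPM of each mouse minus the WT mean for the 10 protein-coding genes among the 20 smallest p-values, blue for 7 WT and red for 4 KI-96 mice, with bars for the mean and SD. All 4 KI-96 mice lie below every WT mouse for Coq10b, Ppp4r4, Dlx1, Ifrd1 and Bbs5 and above every WT mouse for Kcng1, while Plk5, Adi1, Rpl3 and Mfn2 overlap.

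The other 10 of these genes were pseudogenes or noncoding RNAs, and the values of pseudogenes are uncertain because reads may belong to near-identical copies. Catspere1, annotated as an unprocessed pseudogene (chr1:177808550-177962233), had no read in any KI-96 mouse and 1 read in WT replicate 1, and was at 3.93 to 10.3 CPM in the other 6 WT mice. Taking 3 counts per library as the floor, the WT mean of 5.89 CPM was at least 34.4-fold higher than the KI-96 level. KI-571 mice held 0 to 0.113 CPM, all below those 6 WT mice. KI-FL mice held 0 to 8.94 CPM, a range that reached into that of the 6 WT mice. Tmem181b-ps was at 122, 101, 180 and 107 CPM in KI-96 and at 169 to 290 CPM in WT, with a log2 fold change of -0.98 (SE 0.174). WT replicate 1, the WT mouse with high Xist, was the lowest WT mouse for both of these genes. For 814 of the 1735 genes, or 46.9%, it lay nearer to the KI-96 mean than to the mean of the other WT mice, and so it did for 4 of the 20 genes with the smallest p. Each of the other 6 WT mice, set against the mean of the remaining WT mice, lay nearer to KI-96 for 115 to 424 of the 1735 genes, or 6.63% to 24.4%, and for 0 or 1 of the 20. The 1735 genes were chosen by the test of KI-96 against these same WT mice. The share over all tested genes is not given here, so that these counts do not tell whether WT replicate 1 stands apart in the chosen genes only. The lincRNA Gm34721 was at 1.05, 0.675, 0.513 and 0.815 CPM against 1.66 to 3.86 CPM in WT, a log2 fold change of -1.62 (SE 0.318) without overlap, and it kept an unadjusted p under 0.05 with the Xist covariate. Gm6089 rested on KI-96 replicates 2 and 4, at 5.87 and 8.70 CPM against 0.449 and 1.20 CPM in the other 2. Of the rest, Gm27544, A230009B12Rik, Gm10180 and Gm3788 were lower and Gm6477 and Gm19196 higher in KI-96, all 6 without overlap.

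Some genes with larger folds also held in every leave-one-out fit without overlap. Vwf, the von Willebrand factor of endothelial cells, was at 19.99, 23.5, 25.3 and 16.9 CPM in KI-96 and at 7.06 to 16.1 CPM in WT, median 11.3, with a log2 fold change of 0.94 (SE 0.224). Tubb6, a beta-tubulin, was at 7.49, 8.10, 6.16 and 6.86 CPM against 1.61 to 5.75 CPM, a log2 fold change of 1.002 (SE 0.273). Lower in KI-96 were Gdpd3, a lysophospholipase D, with a log2 fold change of -1.27 (SE 0.411), and Ect2l, with -1.43 (SE 0.425). The pseudogene Gm6560 was higher, by a log2 fold change of 1.04 (SE 0.267). WT replicate 1 was the highest WT mouse for Tubb6 and the second highest for Vwf.

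The gene lists were read against the background of 10.1% of autosomal genes at an unadjusted p under 0.05, and no member of any list passed an edgeR adjusted p of 0.05. Other fits have other backgrounds. With each mouse left out, 1260 to 3142 autosomal genes were at that p. There were 602 with WT replicates 1 to 4 only, 2015 with WT replicates 5 to 7 only and 149 with the Xist covariate. Of the 30 lists, the interferon-stimulated genes had the largest share of members at an unadjusted p under 0.05. Type I interferon binds its receptor and activates transcription factors that bind the interferon-stimulated response element in the promoters of these genes. That element, taken as GAAA, any 2 bases and GAAA and searched on both strands in the 250 bases before the start, was found for 6 of the 11 list members in the RefSeq promoter table (GRCm38.p6), namely Ifit1, Ifit3, Isg15, Oas1a, Bst2 and Rsad2, and for 3.46% of all 27025 genes in it. The promoters of Ifit1 (chr19:34640639-34640888) and Ifit3 (chr19:34583279-34583528), both on the plus strand, are shown because each holds 2 matches, in capitals, 94 and 75 bases before the start in Ifit1 and 146 and 112 bases before it in Ifit3.
Ifit1 promoter: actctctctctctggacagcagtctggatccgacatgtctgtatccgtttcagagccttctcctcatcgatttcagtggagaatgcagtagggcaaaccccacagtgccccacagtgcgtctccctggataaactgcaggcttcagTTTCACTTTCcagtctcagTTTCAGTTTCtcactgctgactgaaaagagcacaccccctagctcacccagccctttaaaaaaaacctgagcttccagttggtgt
Ifit3 promoter: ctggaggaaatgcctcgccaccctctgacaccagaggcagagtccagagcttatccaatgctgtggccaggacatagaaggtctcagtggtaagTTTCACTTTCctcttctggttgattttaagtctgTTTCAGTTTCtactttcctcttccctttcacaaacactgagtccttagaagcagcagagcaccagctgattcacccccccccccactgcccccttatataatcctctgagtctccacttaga

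All 14 tested interferon-stimulated genes had a higher mean in KI-96, with a median log2 fold change of 0.73, and 9 of 14, or 64.3%, had an unadjusted p under 0.05. Ifit1, which binds RNA with foreign 5′ ends, was at 2.62, 1.49, 4.96 and 5.27 CPM in KI-96 and at 1.10 to 2.04 CPM in WT, with a median of 1.49. KI-96 replicates 1, 3 and 4 were above every WT mouse and replicate 2 was at the WT median. The log2 fold change was 1.25 (SE 0.309), with an edgeR adjusted p of 0.382 and a DESeq2 adjusted p of 0.0439. Oasl2, of the oligoadenylate synthetase family, was at 1.95, 3.17, 5.93 and 7.80 CPM against 1.16 to 2.87 CPM, a log2 fold change of 1.40 (SE 0.349). Irf7, the regulator that amplifies interferon production, and Usp18, which restrains receptor signalling, were named after their values were seen. Irf7 was at 1.27, 1.62, 1.99 and 3.86 CPM against 0.517 to 1.45 CPM and Usp18 at 0.449, 0.810, 2.05 and 3.09 CPM against 0.369 to 0.735 CPM. No member separated the groups completely.

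KI-96 replicate 4 was the highest mouse for most interferon-stimulated genes. Without it 11 of 14 members were higher, 3 had an unadjusted p under 0.05 and the median log2 fold change was 0.35. Ifit1, Irf7 and Oasl2 kept a p under 0.05 in all 11 leave-one-out fits. Without KI-96 replicate 3, 7 of 14 had a p under 0.05, and with WT replicates 1 to 4 as the only controls 5 of 14. With the Xist covariate 13 of 14 were still higher, at a median of 0.43, and none had a p under 0.05. Against KI-571, measured in all 19 mice, the median difference of the members was 0.10, and 1 member was lower and none higher at an unadjusted p under 0.05. The background of that contrast was 5.38%. Against KI-FL 6 of 14 were higher at an unadjusted p under 0.05, with a background of 8.87%, and the median difference was 0.73. The mean log2 CPM of the 14 members was -0.70 in KI-FL replicate 4 and 1.06 to 1.57 in the other KI-FL mice. Few genes were detected in that library, and its part in this difference was not tested. The microglial markers Cx3cr1 and P2ry12 summed to 92.5 to 107 CPM in KI-96 and 75.2 to 117 CPM in WT, and their part in the result was not tested.

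Cholesterol synthesis genes were mostly lower. Neurons and glia of the brain make their own cholesterol, and the enzymes of the pathway are under the control of SREBP2, which binds sterol regulatory elements. Written as TCACNCCAC and searched in the same window on both strands, such an element was found in 1 of the 13 members in the promoter table, Hmgcs1, and in 1.22% of all genes. The Hmgcs1 promoter (chr13:119690101-119690350, plus strand) is shown with the match, 128 bases before the start, in capitals.
Hmgcs1 promoter: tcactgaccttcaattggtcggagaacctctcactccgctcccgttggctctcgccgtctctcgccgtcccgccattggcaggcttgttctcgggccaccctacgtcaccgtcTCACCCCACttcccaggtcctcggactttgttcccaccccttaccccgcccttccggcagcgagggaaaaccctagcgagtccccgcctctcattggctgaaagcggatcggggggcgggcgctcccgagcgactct

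Of the 19 cholesterol synthesis genes 17 had a lower mean in KI-96, with a median log2 fold change of -0.20, and 7 were lower and 1 was higher at an unadjusted p under 0.05, together 42.1%. Idi1, which makes dimethylallyl diphosphate, was at 8.23, 10.4, 8.78 and 9.77 CPM in KI-96 and at 11.6 to 16.1 CPM in WT, with a median of 14.3. The groups did not overlap, and the log2 fold change was -0.56 (SE 0.131), with an edgeR adjusted p of 0.382 and a DESeq2 adjusted p of 0.0320. Cyp51, the lanosterol demethylase, was at 43.1, 44.4, 38.6 and 43.9 CPM against 48.8 to 55.8 CPM, again without overlap, at a log2 fold change of -0.32 (SE 0.0798). Msmo1, a later enzyme of the pathway, is named after its values were seen. It was at 46.4, 58.8, 40.4 and 56.9 CPM against 60.1 to 78.6 CPM, at -0.37 (SE 0.114). The member that was higher, Srebf2, codes for SREBP2 itself and was at 319, 323, 329 and 257 CPM against 230 to 294 CPM.

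Idi1, Cyp51 and Msmo1 kept an unadjusted p under 0.05 in all 11 leave-one-out fits, and the list median stayed between -0.23 and -0.14. Without KI-96 replicate 3 the number lower at p under 0.05 fell from 7 to 3, and without WT replicates 5 to 7 it was 5. With the Xist covariate 10 of 19 members were lower, the median was -0.05 and none had a p under 0.05. The oligodendrocyte markers Mbp and Mog summed to 3375 to 7219 CPM in KI-96 and 5220 to 7259 CPM in WT. Their part in the result was not tested. In the direct contrasts with KI-571 and with KI-FL the list had medians of -0.02 and -0.02, and 1 member was lower at p under 0.05 in each.

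**Figure D3:**
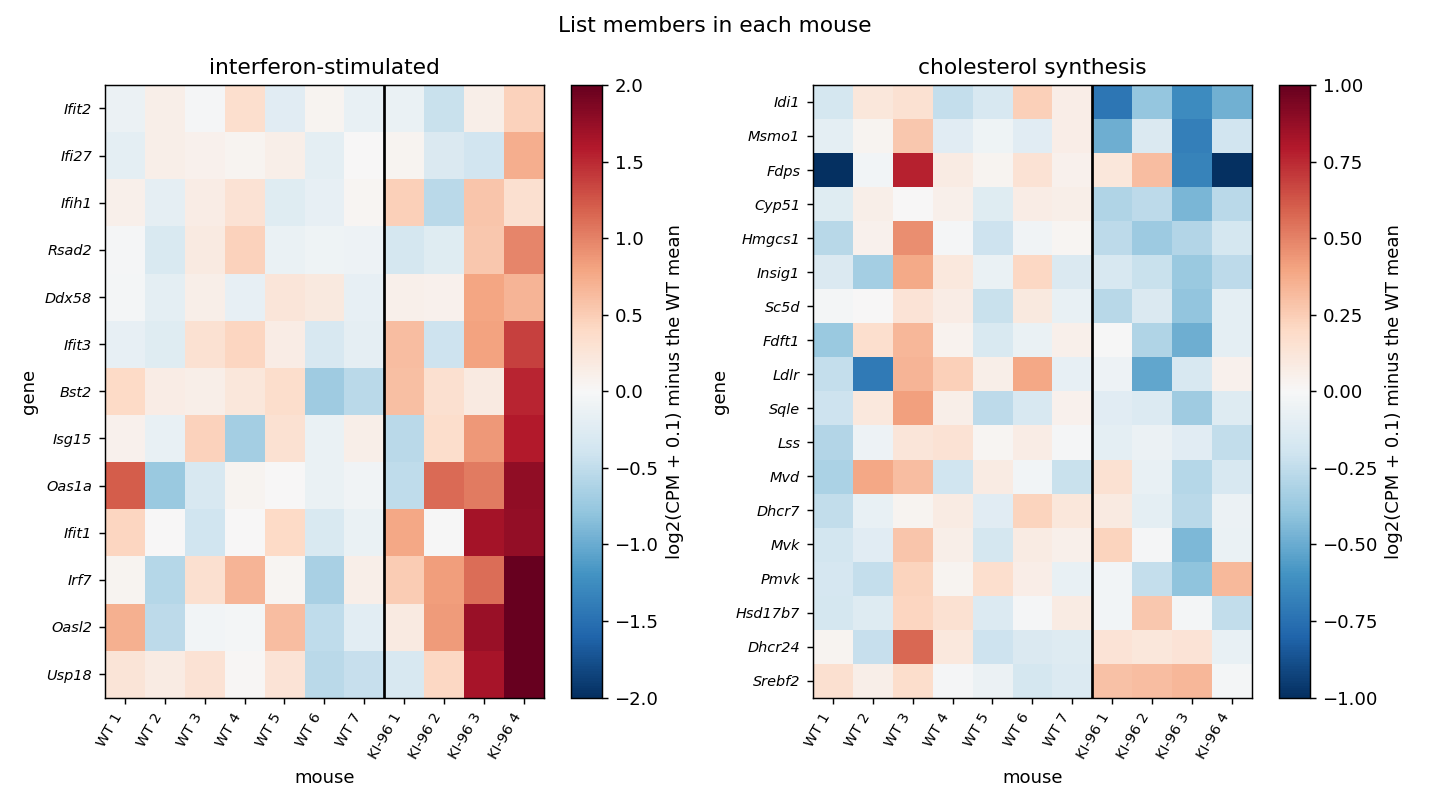
Colours give log2(CPM + 0.1) minus the WT mean for the list members shown (rows) in each mouse (columns), WT left and KI-96 right of the line, with colours cut off at 2 for interferon-stimulated and at 1 for cholesterol synthesis genes. The interferon-stimulated genes are highest in KI-96 replicates 3 and 4, and Idi1, Msmo1 and Cyp51 are lower in all 4 KI-96 mice than in any WT mouse.

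The clustered protocadherins, adhesion molecules from which each neuron expresses its own combination, were the list with the most members at an unadjusted p under 0.05. Of 54 tested, 53 had a higher mean in KI-96, 20 (37.0%) were higher at p under 0.05 and none was lower, with a median log2 fold change of 0.34. Pcdhga11 was at 15.7, 12.8, 16.8 and 8.40 CPM in KI-96 and at 7.49 to 12.2 CPM in WT, median 8.24, with a log2 fold change of 0.59 (SE 0.184) and an edgeR adjusted p of 0.409. Pcdhga5 was at 17.3, 15.5, 17.8 and 10.97 CPM against 8.30 to 13.1 CPM, with 0.51 (SE 0.158). Pcdhga1, the first gene of its cluster, was at 4.27, 4.32, 6.04 and 2.66 CPM against 2.63 to 3.71 CPM. KI-96 replicates 1 to 3 lay above the WT range for each of these genes and replicate 4 inside it. Only Pcdhb11, named after its values were seen, separated the groups, with 8.14 to 9.92 CPM against 4.26 to 7.94 CPM. The genes of a cluster lie side by side on 1 chromosome, so that they are not independent measurements. Those of the alpha and gamma clusters (Pcdha and Pcdhg), but not the Pcdhb genes, share their last exons. Reads of the shared exons may have been dropped or split.

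The protocadherin count depended on single mice. It was 32 of 54 without KI-96 replicate 4 and 4 of 54 without KI-96 replicate 3, with list medians of 0.52 and 0.23. Of all tested autosomal genes, 3142 of 17543 and 1928 of 17464 were at a p under 0.05 in these fits. With WT replicates 1 to 4 as the only controls 4 members had a p under 0.05, and with the Xist covariate 1. Pcdhb11, Pcdhga11 and Pcdhga5 kept a p under 0.05 in all 11 leave-one-out fits. Against KI-571 12 of 54 were higher in KI-96 at an unadjusted p under 0.05, with a background of 5.38%. Against KI-FL 3 were lower and none was higher at that p, with a background of 8.87%. The median differences of the list were 0.41 and 0.0018.

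Genes that mark the projection neurons did not stand out. None of 9 direct-pathway and none of 7 indirect-pathway genes had an unadjusted p under 0.05, with median log2 fold changes of 0.01 and 0.05. Drd1, the dopamine receptor of the direct pathway, was at 265, 247, 221 and 166 CPM in KI-96 and at 206 to 325 CPM in WT. Drd2, that of the indirect pathway, was at 271, 367, 221 and 223 CPM against 190 to 320 CPM. The groups overlapped for both, with edgeR adjusted p of 0.713 and 0.881. Of 30 signalling genes shared by these neurons, among them Ppp1r1b, which codes for DARPP-32, only Pde2a, a cyclic nucleotide phosphodiesterase, had a p under 0.05, higher at 11.98, 15.4, 20.5 and 9.47 CPM against 5.70 to 12.6 CPM. This count depended on single KI-96 mice. Without KI-96 replicate 4, 9 of the 30 were higher at a p under 0.05, with a median of 0.13. In that fit 1546 of all 17543 autosomal genes were higher at that p. Without KI-96 replicate 2, 0 were higher and 4 lower, with a median of -0.045, and without KI-96 replicate 3 there were 0 in either direction. Of all 17620 autosomal genes tested without KI-96 replicate 2, 861 were higher and 759 lower at that p. Among 15 interneuron genes 2 were higher at an unadjusted p under 0.05, Nos1 and Slc18a3, and 2 were lower, Vip and Npy. Together these were 26.7%, against 10.1% of all tested autosomal genes. None of the 15 kept such a p in every leave-one-out fit. Without WT replicate 3, and also without KI-96 replicate 1, 1 was higher and 0 were lower. Without KI-96 replicate 4, 1 was higher and 3 were lower. With the Xist covariate there were 0 in either direction. Chat of the cholinergic cells overlapped at 23.5 to 34.4 CPM against 24.9 to 37.3 CPM.

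Among receptors and channels, 4 of 22 glutamate receptor genes were higher and 1 was lower at an unadjusted p under 0.05, 22.7% together, led by Grin3b, an NMDA receptor subunit of low level, with 1.57, 3.04, 1.42 and 2.44 CPM against 0.913 to 1.75 CPM in WT. Grin1, the obligatory NMDA receptor subunit, had a log2 fold change of 0.09 (SE 0.113). No glutamate receptor gene kept an unadjusted p under 0.05 in every leave-one-out fit. The median of the list was 0.12, and 0.032 without KI-96 replicate 3. The mean log2 CPM of its members was 6.44 in KI-96 replicate 3 and 5.94 to 6.25 in the WT mice. KI-96 replicates 1, 2 and 4 lay inside that range, at 6.18, 6.19 and 6.11. Of 20 GABA genes 1 had a p under 0.05, and of 79 potassium channel genes 5 were higher and 1 lower, 7.59% together and below the background. Kcnj12, an inward rectifier, followed Kcng1, with 19.8, 19.4, 22.8 and 20.3 CPM against 12.6 to 17.6 CPM and no overlap, while Kcnj4, the rectifier typical of striatum, had a log2 fold change of 0.01 (SE 0.122). Of 12 neurotrophin genes, Shc3, an adaptor of Trk receptors, had a p under 0.05, at 89.9, 90.9, 105 and 76.3 CPM against 55.5 to 82.1 CPM. Bdnf itself was at 0.225 to 1.59 CPM in KI-96 and at 0.714 to 8.69 CPM in WT, the highest being WT replicate 3.

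Collagen and laminin genes differed in both directions, with 6 of 52 higher and 6 lower at an unadjusted p under 0.05, 23.1% together. Col6a1, of collagen VI, was at 69.0, 110, 85.3 and 125 CPM in KI-96 and at 92.5 to 196 CPM in WT, and its log2 fold change of -0.70 (SE 0.192) became 0.08 with the Xist covariate. WT replicate 1 was the lowest WT mouse. Col1a2, of fibrillar collagen I, was at 6.96, 6.68, 7.07 and 8.14 CPM against 3.37 to 6.13 CPM without overlap. Col4a1, of basement membranes, had -0.07 (SE 0.136). Of 15 blood vessel genes 12 were higher, with a median of 0.15, and none had a p under 0.05. The controls chosen moved this list. Without WT replicate 1, 5 of the 15 were higher at a p under 0.05, and with WT replicates 5 to 7 as the only controls 9 were, with a median of 0.45. With WT replicates 1 to 4 only, 10 of the 15 were lower, with a median of -0.013, and with the Xist covariate 14 were lower, with a median of -0.27, none at a p under 0.05 in either. Endothelial markers summed to 22.04 to 51.5 CPM in KI-96 and 21.1 to 50.9 CPM in WT.

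Of 14 immediate early genes, which neurons switch on with activity, 12 had a lower mean, with a median of -0.37, and 2, Arc and Dusp1, had an unadjusted p under 0.05, or 14.3% against 10.1% of all genes. Arc, a synaptic plasticity gene, was at 68.6, 136, 74.2 and 116 CPM in KI-96 and at 99.2 to 242 CPM in WT, and Fos at 7.93 to 16.8 CPM against 5.69 to 30.8 CPM. With WT replicates 1 to 4 as the only controls the median of this list was -0.04, and with WT replicates 5 to 7 only it was -0.63 with 10 of 14 lower at a p under 0.05. That count was 6 without WT replicate 3, 4 without KI-96 replicate 4, 1 without WT replicate 5 or 6 and 0 without KI-96 replicate 1 or 3. Of 11 glucocorticoid-responsive genes 10 were lower, with a median of -0.42 and 2 at a p under 0.05 (18.2%), Map3k6 and Sgk1, while Fkbp5, the best known of them, was the member that was higher, at 45.9 to 61.2 CPM against 40.6 to 63.3 CPM. Without WT replicate 2 the median of this list was -0.21, with 1 member higher and 1 lower at a p under 0.05. Of 15 clock genes only Per3 had a p under 0.05, at 48.1 to 67.5 CPM in KI-96 against 52.2 to 86.4 CPM in WT. With the Xist covariate no member of the activity and glucocorticoid lists had a p under 0.05, and their medians were 0.024 and 0.066. With all 19 mice and that covariate again none had, but the medians were 0.21 for the immediate early genes, 10 of 14 being higher, and -0.52 for the glucocorticoid list, 10 of 11 being lower.

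Protein quality control genes lay near the background of 10.1% or below it. At an unadjusted p under 0.05 were 1 of 26 chaperone genes, 2 of 18 genes of the unfolded protein response, 4 of 40 proteasome genes and 1 of 21 autophagy genes. Hyou1, a chaperone of the endoplasmic reticulum, was at 166, 170, 182 and 131 CPM in KI-96 and at 98.4 to 163 CPM in WT, while Hspa5, the main such chaperone, had a log2 fold change of -0.04 (SE 0.228). Becn1, a starter of autophagy, was at 68.6, 70.5, 71.4 and 64.9 CPM against 47.2 to 66.2 CPM. Of 9 polyamine genes Azin1, which spares ornithine decarboxylase from breakdown, was lower at 90.3 to 97.9 CPM against 96.7 to 114 CPM. Of 80 nuclear genes of the respiratory chain 65 had a lower mean, with a median of -0.15 and 2 at a p under 0.05. Without KI-96 replicate 3 the median was 0.03, and 15 members were higher and 1 was lower at a p under 0.05. Of 74 cytosolic ribosomal protein genes 3 were higher, Rpl3, Rpl23a and Rpl35, and 1 was lower, Rps27, all uncertain for their near-identical copies.

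Markers of other cells moved with single mice. Cortical neuron genes had a median of -1.28 with 9 of 12 lower, but without WT replicate 3, the mouse with the high cortical sum, the median was 0.08. Slc17a7, the vesicular glutamate transporter of cortical neurons, was at 849 CPM in that mouse and at 12.004 to 64.8 CPM in the other WT mice. Choroid plexus genes were lower in 10 of 11, with a median of -0.81, and 2, Ttr and Kl, had an unadjusted p under 0.05. Ttr, the transthyretin of the choroid plexus, was at 7.56, 21.7, 3.42 and 62.3 CPM in KI-96 and at 20.8 to 356 CPM in WT, the highest being WT replicate 2. Without that mouse the median of the list was -0.36, 8 of 11 were lower and none had a p under 0.05. With the Xist covariate 7 of 11 were higher, with a median of 0.15, and with all 19 mice and that covariate 10 of 11, with a median of 0.30. Red blood cell genes had a median of -0.32 over 4 genes. Microglial, astrocyte and oligodendrocyte lists had medians of -0.01 each and 1, 1 and 2 members at a p under 0.05. The microglial list moved most without KI-96 replicate 3, where 11 of 16 were higher, with a median of 0.15, and 4 were higher and 0 lower at a p under 0.05. Alb, the serum albumin of liver, missed the filter on low counts when the 11 mice were fitted, with 0 to 2 counts in each WT mouse and 124, 26, 2 and 467 counts in the KI-96 mice. The KI-571 mice had 36 to 113 counts and the KI-FL mice 5 to 93 counts, and Alb was named after its values were seen. Liver and plasma markers summed to 0.371 to 34.9 CPM in KI-96 and 0.349 to 0.912 CPM in WT, and their part in other results was not tested.

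**Figure D4:**
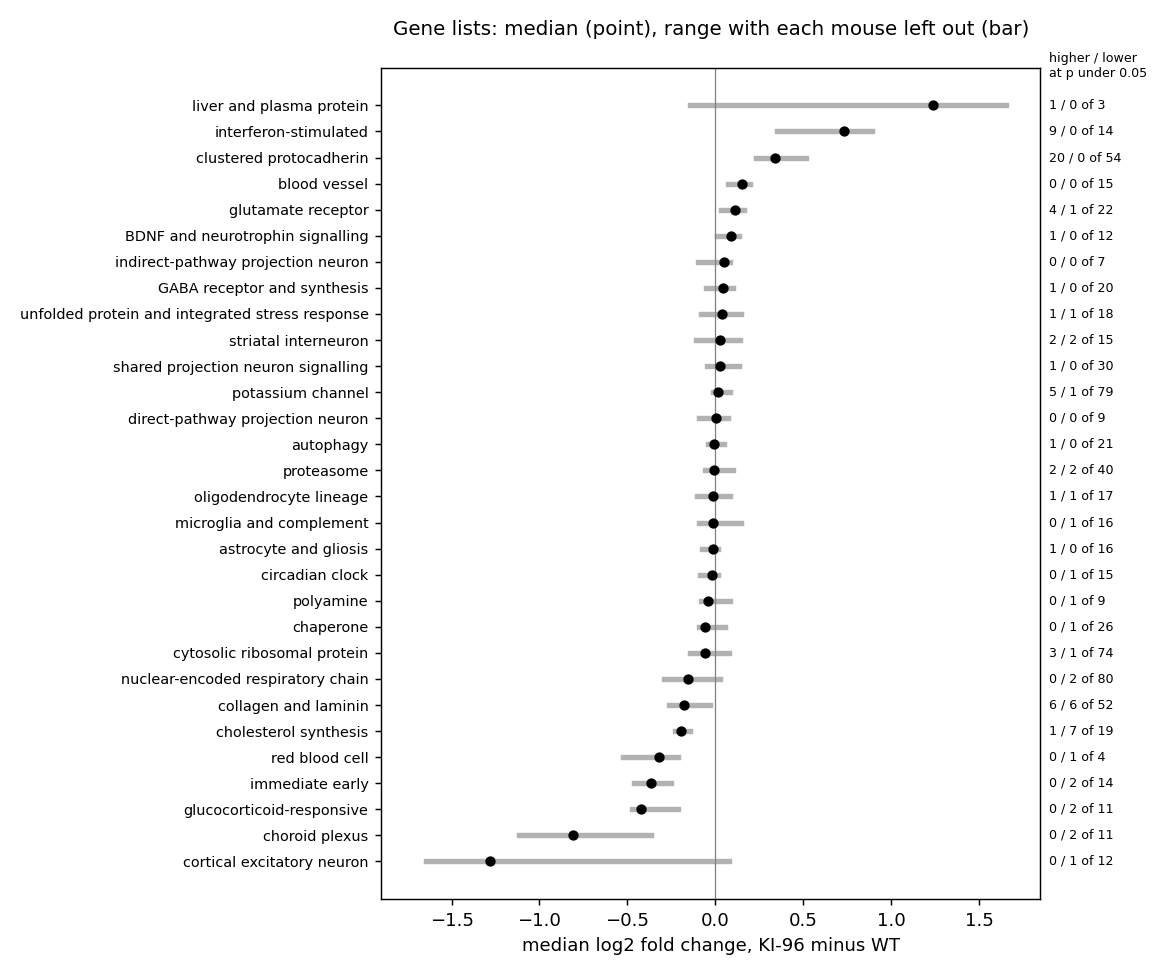
Points are the median log2 fold change, KI-96 minus WT, of the tested members of each of 30 gene lists, grey bars the range of that median with each mouse left out in turn, and the numbers at the right the members higher and lower at an unadjusted p under 0.05. The interferon-stimulated, protocadherin, blood vessel, glutamate receptor and BDNF bars lie above 0, and the cholesterol synthesis, choroid plexus, red blood cell, immediate early, glucocorticoid and collagen and laminin bars below it, whereas the other bars, among them liver and cortical, cross it.

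Set directly against the other KI genotypes in all 19 mice, KI-96 had no autosomal gene past an edgeR adjusted p of 0.05 among 17873 tested. At an unadjusted p under 0.05 there were 961 against KI-571 and 1585 against KI-FL, and DESeq2 called 28 and 27. Xist was at 0.901 to 5.11 CPM in the KI-571 mice, so that genotype and Xist level cannot be told apart in any contrast with KI-571. Of the KI-FL mice only replicate 2 was high, at 1190 CPM, with 1.06 to 3.10 CPM in the others. Htt itself was higher in KI-96 than in KI-571, where it was at 109 to 146 CPM, by a log2 fold change of 0.59, with an edgeR adjusted p of 0.383. Kcng1 was at 42.0 to 75.5 CPM in KI-571 and at 49.9 to 79.5 CPM in KI-FL, so that the difference of KI-96 from them was 0.07 and -0.17 on the log2 scale. For Coq10b the log2 differences from KI-571 and KI-FL were -0.60 and -0.37, with edgeR adjusted p of 0.499 and 0.555. For Dlx1 they were -0.37 and -0.59, with edgeR adjusted p of 0.896 and 0.369. Idi1 differed by -0.24 and 0.0076, Mfn2 by 0.14 and 0.09 and Vwf by 0.0045 and 0.43. No gene named here passed an edgeR adjusted p of 0.05 in either direct contrast.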

How the data were processed

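Striatal RNA of 4 KI-96 and 7 WT mice was analysed, with the genotype and replicate number of each mouse taken from the labels. The values deposited by the authors are raw counts for each gene. The methods name BBduk for adapter trimming, STAR for alignment to GRCm38 and HTSeq for counting. Aligner and counter versions, gene models and strandedness are not given in the sources used here, so that overlapping, antisense and near-identical genes may share reads. The 5 HTSeq summary lines and 4 columns that belong to no mouse of the series were not used. Gene positions and types came from GENCODE release M21 on the same build, and promoters from RefSeq (GRCm38.p6). The protocadherins were not found in the promoter table.

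X and Y genes were removed, low genes were dropped by filterByExpr (a count of at least 10, a total of at least 15), and edgeR 4.0.16 in R 4.3.3 fitted the 11 mice (TMM, quasi-likelihood F-test, genotype only). Adjustment of p followed Benjamini and Hochberg over all tested genes, with a threshold of 0.05. The study's methods used DESeq2 with a sacrifice batch that the labels do not give, and left out a WT mouse as a possible outlier, which the sources used here do not identify. All 7 WT mice were kept here. With single WT mice left out, DESeq2 called between 5 (without WT replicate 7) and 127 (without WT replicate 1) genes. DESeq2 1.42.0 and sva 3.50.0 served as alternatives, as did other filters, controls and covariates and each mouse left out. The p-values reflect the spread between these mice. The edgeR and DESeq2 steps were tested on simulated data. Values in single mice are CPM with TMM library sizes, with a prior count of 2 on the log2 scale. The mice, gene lists and tests were chosen with earlier results of these data known. Named genes were drawn from Htt, the 20 genes with the smallest p, the defining gene and the 2 smallest p of each list, the 5 strongest genes called only by DESeq2, and the 5 higher and 5 lower genes with the largest fold among those above 1 CPM that did not overlap and held in all leave-one-out fits. Other genes, among them Irf7, Usp18, Msmo1, Srebf2, Pcdhb11, Slc18a3, Npy, Rpl35, Rps27, Rpl38-ps2, Alb and Ahsg, were named after their values were seen. The floor of 3 counts per library covers counting error only. Some genes of the lists are counted but not reported here by name.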

Additional observations from a re-analysis of the deposited data

Results flagged for a closer look

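Of 72 sets of values from the mice of a single genotype, 5 held a mouse that stood apart from the others, where chance at 1 in 20 would give 3.6. On the log2 CPM scale WT replicate 1 had a Catspere1 level of -2.62, and the remaining WT mice had 2.01 to 3.38. In KI-96 replicate 3, 24.2% of reads fell outside annotated genes, where the rest of its group had 11.8% to 12.7%. WT replicate 3 had a mean correlation with the other WT mice of 0.976 against 0.981 to 0.984, and a summed level of cortical neuron markers of 961 CPM against 14.0 to 78.4 CPM. WT replicate 2 had a summed level of choroid plexus markers of 373 CPM against 28.1 to 177 CPM.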

How the results depend on the processing

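The count past an adjusted p of 0.05, which was 0 with edgeR, was 50 with DESeq2, 69 with DESeq2 after leaving out KI-96 replicate 3 (chosen after seeing the data), 5 without a filter on low counts (Ahsg, Alb, Kcng1, Tmem181b-ps and Catspere1), 1 with all 19 mice in the model (Alb) and 20 with WT replicates 5 to 7 as the only controls. It was 0 to 2 with each mouse left out. The count of 1735 at an unadjusted p under 0.05 became 2933 without a filter, 149 with the Xist covariate and 203 with all 19 mice and that covariate. It was 602 with WT replicates 1 to 4 only, 2015 with WT replicates 5 to 7 only and 1260 to 3142 with each mouse left out. With the replicate number added to the model as a block it was 551. No KI-96 mouse has the number of WT replicates 5 to 7, so that this fit in effect compares KI-96 with WT replicates 1 to 4. The deviations of mice of the same number correlated at -0.03, 0.19, -0.03 and -0.06. Whether such mice shared more than the number is not given by the labels and was not tested. The count without overlap, 221, became 391 with WT replicates 1 to 4 only, 2340 with WT replicates 5 to 7 only and 241 to 1099 with each mouse left out. Other control sets and fewer mice change the number of genes tested and of mice compared, and for the other moves the cause was not tested.

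Several named genes, none past the adjusted threshold, changed sign. With the Xist covariate the log2 fold change was -0.12 for Htt, 0.082 for Col6a1, -0.0072 for Hspa8, -0.050 for Sqstm1, 0.18 for Sgk1, 0.20 for Gfap, 0.58 for Fos, 0.023 for Arc, 0.024 for Dusp1, -0.076 for Grin1, 0.0016 for Per3, -0.34 for Flt1, -0.082 for Cdh5, -0.15 for Drd2, -0.10 for Cspg4, -0.089 for Atg9a, -0.43 for Cldn5, 0.042 for Mbp, -0.089 for Kcnj4, 0.16 for Hbb-bs, 0.019 for Kl and 0.36 for Hba-a1. With all 19 mice and that covariate it was 0.017 for Gfap, 0.61 for Fos, 0.20 for Arc, 0.073 for Dusp1, -0.012 for Cspg4, 0.037 for Ciart, 0.052 for Hbb-bs, -0.0038 for Per2, 0.086 for Kl, 0.13 for Ttr and 0.44 for Hba-a1. With WT replicates 1 to 4 only it was 0.025 for Gfap, 0.091 for Fos, -0.029 for Drd2, -0.062 for Kcnj4 and -0.047 for Per2. With WT replicates 5 to 7 only it was 0.16 for Hspa5, 0.019 for Ciart, 0.16 for Bdnf, 0.16 for Ppp1r1b and 0.9999 for Slc17a7. With the replicate block it was -0.0034 for Sqstm1, 0.040 for Gfap, 0.15 for Fos, -0.042 for Drd2 and -0.079 for Kcnj4. With 1 surrogate variable it was 0.024 for Hspa5 and -0.053 for Htt. With DESeq2 it was 0.46 for Slc17a7, and without KI-96 replicate 3 in DESeq2 it was 0.054 for Gfap, 0.073 for Hspa5, -0.086 for Htt, 0.018 for Psma1, 0.059 for Ppp1r1b and 0.62 for Slc17a7. For Kcnj4 it was -0.0070 without a filter and -3.8e-05 when each mouse had to hold 10 counts or more. With each mouse left out, the range was -0.32 to 0.047 for Gfap, -0.20 to 0.15 for Hspa5, -0.094 to 0.17 for Htt, -0.17 to 0.010 for Psma1, -0.17 to 0.046 for Col4a1, -0.18 to 1.66 for Apoc3, -0.097 to 0.17 for Drd2, -0.10 to 0.089 for Kcnj4, -0.014 to 0.30 for Per2, -0.30 to 0.051 for Ppp1r1b and -2.79 to 0.49 for Slc17a7. The 20 genes with the smallest p kept their direction under every alternative in which they could be tested. They were chosen by p in these same mice, which the alternatives fit again, so that this is no separate support.

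Genes of few reads, such as the interferon-stimulated genes near 1 CPM, have counting error beside the spread between mice.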
